A study of Homo sapiens with 3 samples.

Results

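The major histocompatibility complex (MHC) of human chromosome 6 was taken as the stretch from 28500000 to 33500000 in hg19 coordinates, and every peak that touched it in the 2 deposited ChIP-seq peak lists was a member. This gave 105 of the 21555 XPB peaks and 81 of the 14570 XPD peaks, 186 intervals in all, each with 1 summit. The rule used position only, so heights, scores and overlap were free to vary. Members were assigned by their summit to class I (up to 31500000), class III (from there to 32200000) or class II (the remainder), and 0 intervals crossed a class boundary.

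The peaks came from HT1080 cells, an established human fibrosarcoma line. One library was made with a rabbit polyclonal antibody against XPB, another with a rabbit polyclonal antibody against XPD, and the remaining one from unenriched input DNA, all from 1 pool of crosslinked chromatin. The shared protocol text names an antibody against another protein, CSB, and the antibody fields of the samples were followed. Peaks of the input were not analysed here. Whether the input served as the control in peak calling is not given in the sources used here, so the background behind each score is unknown. The labels name no treatment. With 1 library per antibody there was no replicate, so differences carry no test, and all intervals given below cover counting error only (exact Poisson for densities, exact Clopper-Pearson for shares, both at 95%).

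XPB and XPD are the helicase subunits of TFIIH, the general transcription factor that melts promoters so that RNA polymerase II can start, and that also unwinds DNA around a lesion during nucleotide excision repair. The MHC is among the most gene-rich and most polymorphic parts of the human genome. Its class I part holds the genes of the HLA molecules that present peptides to cytotoxic T cells, among many unrelated genes. Class III holds no antigen-presenting HLA genes but is tightly packed with others, including complement components, the tumor necrosis factor family and heat shock proteins. Class II holds the HLA-DR, HLA-DQ and HLA-DP genes, expressed mainly in professional antigen-presenting cells and induced by interferon gamma in many others, together with peptide-processing genes and genes unrelated to immunity.

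In a gene table of another assembly (RefSeq, GRCh38.p14), used for names and order only, with landmark genes taken from general knowledge, 70 protein-coding genes lay from TRIM27 to MICB, landmarks of class I. From DDX39B to NOTCH4, landmarks of class III, there were 58, and from HLA-DRA to KIFC1, landmarks of class II, there were 34. Pseudogenes numbered 84, 7 and 17 in the same stretches. Class III thus had nearly as many coding genes as class I in a far shorter stretch, and few pseudogenes. No sequence or annotation of the hg19 build was used here, so peaks are named by position, are not assigned to genes, and no sequence is printed for them.

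Peaks of both helicases were denser in the MHC region than over the rest of chromosome 6, and densest in class III. The region as a whole held 21.0 XPB peaks per Mb (17.2 to 25.4) and 16.2 XPD peaks per Mb (12.9 to 20.1). The rest of chromosome 6 held 5.05 and 3.48 per Mb, and the autosomes together 7.73 and 5.23. The density in the region was therefore 4.16 times that of the rest of its chromosome for XPB (3.36 to 5.10) and 4.65 times for XPD (3.64 to 5.87). The density was not particular to the MHC within its neighbourhood, however: the flanks, from 26000000 to the start of the region and from its end to 36000000, held 22.6 XPB and 18.6 XPD peaks per Mb. The ratios of the region to these flanks, 0.929 for XPB (0.706 to 1.22) and 0.871 for XPD (0.638 to 1.19), had intervals that included 1.

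Class III held 32 XPB and 28 XPD peaks in 0.7 Mb, or 45.7 per Mb (31.3 to 64.5) and 40 per Mb (26.6 to 57.8). Class I held 57 and 41 peaks in 3 Mb, or 19.0 per Mb (14.4 to 24.6) and 13.7 per Mb (9.81 to 18.5). Class II held 16 and 12 peaks in 1.3 Mb, or 12.3 per Mb (7.03 to 19.99) and 9.23 per Mb (4.77 to 16.1). With all listed peaks counted, the order class III, class I, class II was the same in both lists. Class III exceeded class I by 2.41 times for XPB (1.51 to 3.77) and 2.93 times for XPD (1.74 to 4.85), beyond counting error in each list. Class II over class I was 0.648 for XPB (0.347 to 1.14) and 0.675 for XPD (0.323 to 1.31), within counting error.

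Set beside the genome, class III ranked high and class II did not. When the autosomes were tiled in windows of 0.7 Mb, 1.39% of 3963 windows held at least the 32 XPB peaks of class III, and 0.681% held at least its 28 XPD peaks. Windows of 1.3 Mb reached the XPB count of class II in 22.4% of cases and its XPD count in 20.5%. Windows of 3 Mb reached the count of class I in 10.5% and 9.95%. For windows of 5 Mb and the whole region the shares were 7.5% and 5.85%. XPB peaks outnumbered XPD peaks 1.48 to 1 over the whole lists, 1.39 to 1 in class I, 1.33 to 1 in class II and 1.14 to 1 in class III. Depth is not recorded in the files, so these ratios of peak number say nothing about the amount bound.

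**Figure D1:**
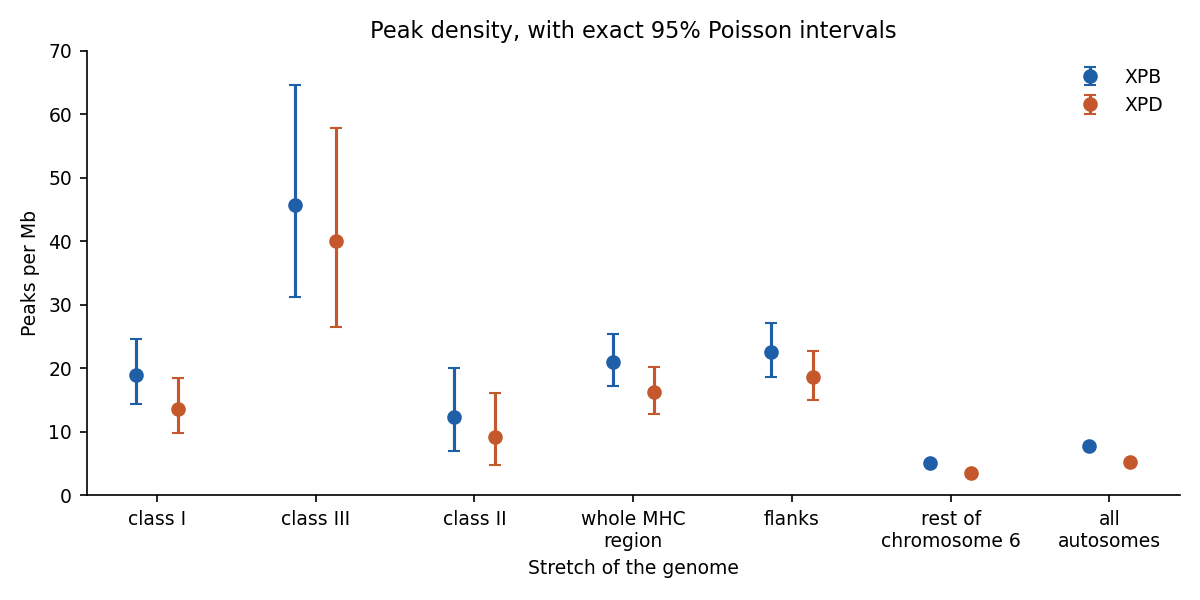
Peaks per Mb (vertical axis) of XPB and XPD in each class, the whole MHC region, its flanks, the rest of chromosome 6 and all autosomes; points are densities and bars are exact 95% Poisson intervals. Class III stands at 45.7 and 40 peaks per Mb, above class I and class II, while the whole region overlaps its flanks.

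The flanks differed from each other. The flank before the region, towards the chromosome end, is the neighbourhood of the large histone gene cluster of chromosome 6, and it held 63 XPB and 53 XPD peaks with median summits of 18 fragments in both lists. The flank after the region held 50 and 40 peaks with medians of 11 and 12 fragments. The MHC region, with median summits of 12 fragments for XPB and 13 for XPD, was close to the latter and to the whole lists (11 and 13). A summit height is the number of fragments piled up at the summit, not scaled to depth, and is read here within 1 list at a time.

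Density varied within the classes as well as between them. In tiles of 500 kb, the class I tile from 30500001 to 31000000 held 27 XPB and 26 XPD peaks, and the class III tile from 31500001 to 32000000 held 27 and 24. These were the most crowded tiles of the region and matched each other. Over the autosomes, 0.918% of 5556 windows of 500 kb held at least 27 XPB peaks, 0.450% at least 26 XPD peaks and 0.522% at least 24 XPD peaks. The tiles made up 20% of the length of the region but held 54 of its 105 XPB peaks (51.4%) and 50 of its 81 XPD peaks (61.7%). Of the other tiles, the fullest for XPB held 11 peaks, from 31000001 to 31500000, with 3 XPD peaks beside them. The fullest of them for XPD held 9, from 33000001 to 33500000, with 10 XPB peaks.

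Within class I the crowding was narrower still. Its densest 300 kb, from 30500001 to 30800000, a block chosen after the data were seen, held 23 XPB and 22 XPD peaks, or 76.7 per Mb (48.6 to 115.0) and 73.3 per Mb (45.96 to 111.0). The rest of class I held 12.6 XPB peaks per Mb (8.72 to 17.6) and 7.04 XPD peaks per Mb (4.24 to 11.0). This block was denser than class III in both lists, with intervals that overlapped. Without it, which raises the ratio by construction, the density of class III was 3.63 times that of class I for XPB and 5.68 times for XPD. The densest window of 100 kb in class I ran from 30700001 to 30800000, with 14 XPB and 9 XPD peaks. In class III it ran from 31700001 to 31800000, with 11 and 12, and in class II from 33200001 to 33300000, with 7 and 7. The densest window was the same for XPB and XPD in each of the 3 classes.

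**Figure D2:**
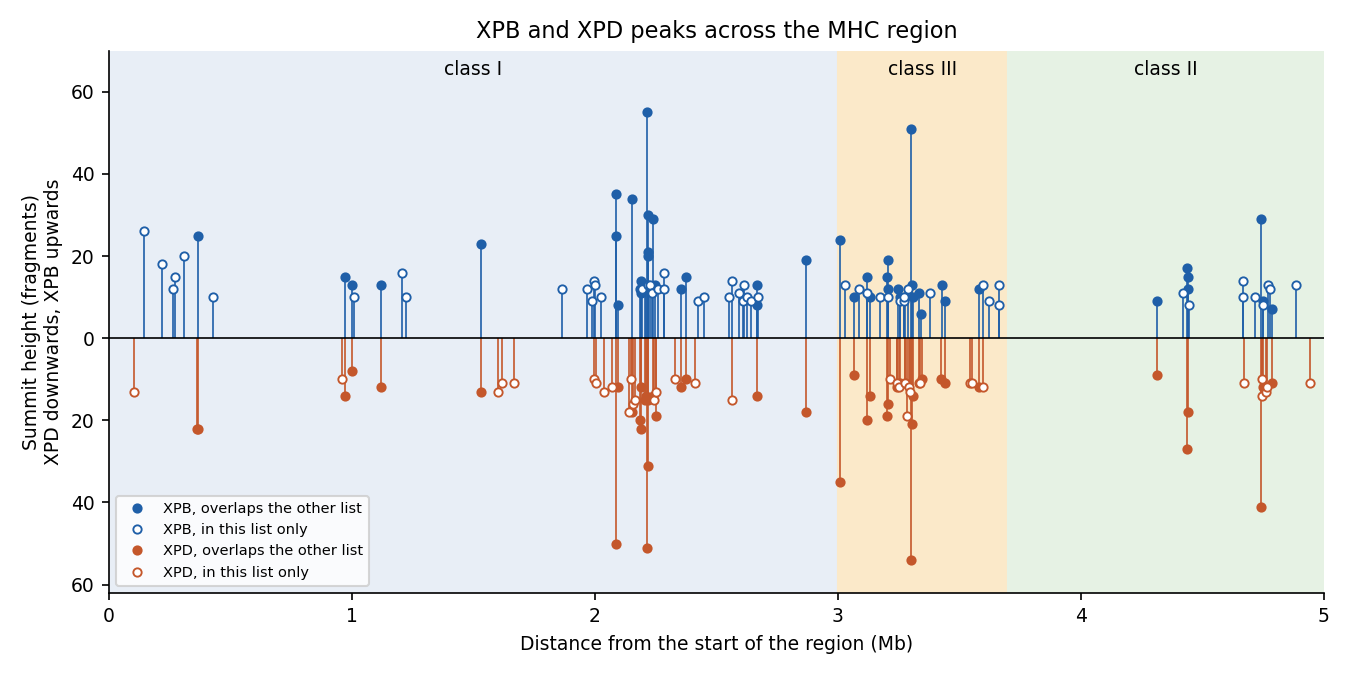
Position of each peak as the distance of its summit from the start of the region (horizontal axis, Mb) against its summit height in fragments (XPB upwards, XPD downwards); filled points overlap a peak of the other list, open points do not, and shading marks the classes. Tall filled summits of both lists face each other in the dense blocks of class I and class III, and the first part of class II is empty.

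Between the blocks lay long stretches with no peak of either list. The longest ran from 32164675 to 32811519, a length of 647 kb, from the end of class III into class II. Its class II part, 612 kb, held 0 XPB and 0 XPD peaks, for which the exact Poisson interval reached 6.03 per Mb in each list (4.91 per Mb by a floor of 3 counts). All class II peaks lay in the remaining 688 kb, at 23.2 XPB peaks per Mb (13.3 to 37.7) and 17.4 XPD peaks per Mb (9.01 to 30.4). Leaving out an empty stretch raises a density by construction, and class I had empty stretches of its own, so these values were not set against class I. The second longest stretch, from 28929025 to 29456963, was 528 kb long and lay in class I. In all, 17 of the 50 windows of 100 kb in the region had no peak of either list, 10 of them in class I, 7 in class II and 0 in class III. Peaks of both lists were present in 24 windows, of XPB alone in 7 and of XPD alone in 2. Spearman's rho between the numbers of XPB and XPD peaks over the 50 windows was 0.74, given as a description of libraries that share their chromatin. Empty stretches and windows were not counted in the flanks or over the autosomes, so they are not read as a trait of the region. Peaks were sparse in much of the genome: the median autosomal window of 0.7 Mb held 2 XPB peaks and 1 XPD peak. Whether reads can be placed uniquely in the empty stretches was not tested.

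The peaks of the region lay close to others of their own list. A second XPB summit lay within 10 kb of 62 of the 105 XPB summits (59.0%, 49.02 to 68.5), and a second XPD summit within 10 kb of 51 of the 81 XPD summits (62.96%, 51.5 to 73.4). Over the whole lists the shares were 41.8% and 34.5%, and in the flanks 51.3% (41.7 to 60.8) and 47.3% (36.9 to 57.9). The median distance to the next summit of the same list was 8.05 kb for XPB and 6.60 kb for XPD in the region, compared with 9.09 and 11.1 kb in the flanks and 14.2 and 20.1 kb over the whole lists.

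Scores, which in the usual MACS layout are 10 times the negative log10 of each peak's p-value and start at 150 in these lists, ran somewhat higher in the region than in the whole lists. The median XPB score was 208 (order-statistic interval 186 to 240), beside 189 over the list. The median XPD score was 201 (194 to 217), beside 185. The upper part of the range showed the difference more plainly: 27 of 105 XPB peaks (25.7%, 17.7 to 35.2) and 20 of 81 XPD peaks (24.7%, 15.8 to 35.5) scored at least 300, where the whole lists gave 14.3% and 11.9%. In the flanks together, 36.3% of XPB peaks (27.4 to 45.9) and 22.6% of XPD peaks (14.6 to 32.4) scored at least 300. Their median scores were 234 and 198, higher than the region for XPB and slightly lower for XPD. The flank before the region gave 46.0% and 34.0% at 300 or more, with medians of 292 and 228.5. The flank after it gave 24% and 7.5%, with medians of 198 and 180. By class, the median XPB scores were 218 in class I, 212 in class III and 182 in class II. The median XPD scores were 207, 197 and 203. Within each list, the intervals of these medians overlapped between all 3 classes.

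Tall summits differed between the classes mainly for XPB, with intervals that overlapped. Summits of at least 20 fragments made up 12 of 57 XPB peaks in class I (21.1%, 11.4 to 33.9), 2 of 32 in class III (6.25%, 0.766 to 20.8) and 1 of 16 in class II (6.25%, 0.158 to 30.2), beside 6.64% over the whole list. For XPD they made up 7 of 41 peaks in class I (17.1%, 7.15 to 32.06), 4 of 28 in class III (14.3%, 4.03 to 32.7) and 2 of 12 in class II (16.7%, 2.09 to 48.4), beside 8.74%. Class III was thus crowded with peaks of ordinary height, and only for XPB in class I did the interval lie above the share of the whole list. In the flanks together such summits made up 26.5% of XPB and 25.8% of XPD peaks, with 41.3% and 41.5% before the region and 8% and 5% after it. Median heights were 13, 11 and 11.5 fragments for XPB in classes I, III and II, and 14, 12 and 12 for XPD. The median widths of classes I, III and II were 850, 1020 and 888.5 bp for XPB and 974, 1160 and 1151.5 bp for XPD, beside 833 and 937 bp over the whole lists. The class III interval lay just above the whole list for XPB (838 to 1190 bp) and included it for XPD (871 to 1264 bp). Score followed width as well as height within the region: across peaks, rho of score with width was 0.57 for XPB and 0.77 for XPD, and with height 0.48 and 0.50. Peaks covered 4.78% of class III for XPB and 4.97% for XPD, compared with 1.70% and 1.43% of class I, 1.15% and 1.07% of class II, 2.15% and 1.79% of the flanks, and 0.643% and 0.487% of the whole span.

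The strongest site of the region lay in the dense block of class I. The XPB peak from 30710593 to 30713158 reached 55 fragments at its summit, 30712286, and scored 2673, which ranked 15 in the whole XPB list. The XPD peak from 30710508 to 30713141 reached 51 fragments at 30712284 and scored 1953.5, which ranked 22 in the whole XPD list. The summits lay 2 bp apart, and both peaks were over 2 kb wide. A few kb further on, the XPB peak from 30716543 to 30717200 (30 fragments, score 752) and the XPD peak from 30716043 to 30717368 (31 fragments, score 773) were also paired, with summits 37 bp apart. Several other pairs stood within the same block.

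At another site of the block the lists differed in shape. An XPD peak from 30584454 to 30585860, with 50 fragments and a score of 1187, spanned a pair of XPB peaks, one from 30584446 to 30585324 with 35 fragments (score 483) and one from 30585397 to 30585960 with 25 (score 343). The taller XPB summit and the XPD summit lay 3 bp apart. The caller thus listed as 2 peaks in one library what it listed as 1 in the other. At the XPB peak from 30649786 to 30651555 the heights went the other way, with 34 fragments for XPB (score 986) and 18 for XPD (score 623) and summits 3 bp apart. The XPB peak from 30736457 to 30737765 had 29 fragments (score 782), and its XPD partner had 14 (score 361).

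**Figure D3:**
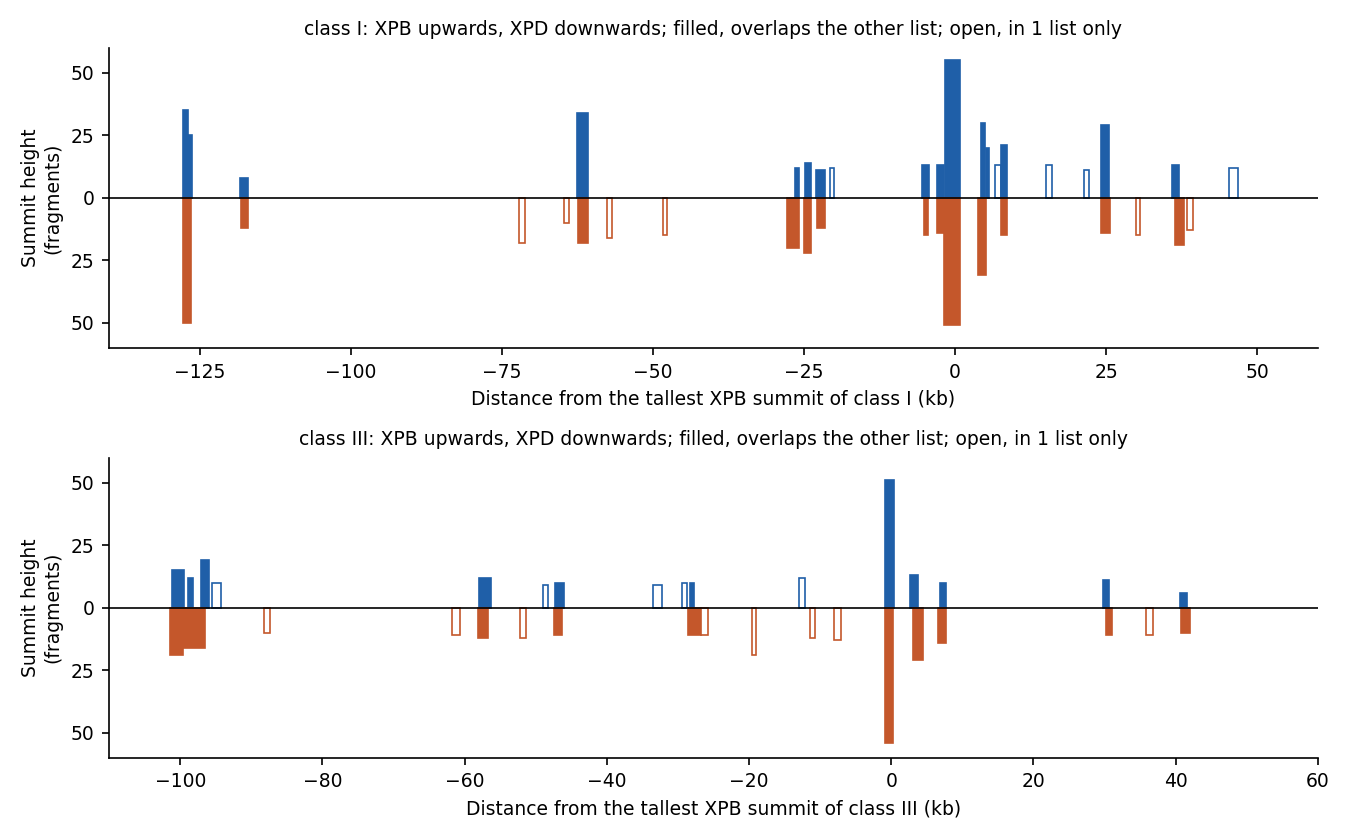
Peaks around the tallest XPB summit of class I (upper panel) and of class III (lower panel); each bar spans a peak interval in distance from that summit (kb) and its length is the summit height in fragments, XPB upwards and XPD downwards, filled where the peak overlaps the other list. The tallest sites, at 55 and 51 fragments in class I and 51 and 54 in class III, face each other, while many low peaks between them are open.

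In class III the strongest site was on chromosome 6 from 31801800 to 31803075 for XPB, where 51 fragments piled up and the score was 1226 (rank 76). The XPD peak there ran from 31801799 to 31803002, with 54 fragments and a score of 1045 (rank 73), and the summits lay 1 bp apart. The next was at the class I border, where the XPB peak from 31509231 to 31510914 had 24 fragments (score 582) and the XPD peak from 31509255 to 31510465 had 35 (score 895). The third by score was at 31620264 to 31621255, with 15 fragments for XPB (score 580) and 20 for XPD (score 445). These 3 sites led class III by score in both lists, in the same order. They were followed by a long tail: only 2 XPB and 4 XPD summits of class III reached 20 fragments.

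The tallest remaining XPB summit of class III was not among the high scores. The peak from 31705612 to 31706719 had 19 fragments and a score of 186, rank 11310 in the XPB list. It lay under the widest XPD peak of the region, from 31703161 to 31706204, which was 3044 bp wide, had 16 fragments and a score of 394, and overlapped 3 XPB peaks. XPD had 4 peaks wider than 2 kb in the region (4.94%, beside 2.27% of the whole list), 3 of them in class III, and XPB had 1 (0.952%, beside 1.18%). The XPD peak from 31925898 to 31928573 reached a score of 424 with only 10 fragments over 2676 bp, and its XPB partner, from 31926981 to 31927561, had 13 fragments and a score of 156. The remaining wide XPD peak, from 32042522 to 32044605, had 11 fragments and a score of 301 and no XPB peak over it. After the tall XPD summits of 54 and 35 fragments in class III came one of 21 fragments, at the peak from 31805766 to 31807184 (score 293), which was paired with an XPB peak of 13 fragments (score 309).

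Class II had 2 places with strong peaks. At 32937053 to 32938663, XPB had 17 fragments and a score of 717, and XPD had 27 fragments and a score of 1113, which ranked 61 in the XPD list. Beside it, an XPD peak from 32939142 to 32940760 (18 fragments, score 602) covered parts of 2 XPB peaks, of 12 and 15 fragments, with scores of 179.5 and 357. At 33238953 to 33240364, XPB had 29 fragments and a score of 654, and the XPD peak from 33238945 to 33240499 had 41 fragments and a score of 809. XPD was the taller list at these sites, as it was, slightly, at the median pair of the whole lists. The rest of class II held summits of at most 14 fragments in both lists.

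Overlap between the lists was the next measure. A peak was called shared when it overlapped a peak of the other list by at least 1 bp. In the region, 50 of 105 XPB peaks were shared (47.6%, 37.8 to 57.6), beside 26.6% of the whole XPB list. Of the 81 XPD peaks 46 were shared (56.8%, 45.3 to 67.8), beside 38.7% of the whole XPD list. Both intervals lay above the share of the whole list. The flanks together gave nearly the same shares as the region, 52 of 113 XPB peaks (46.0%, 36.6 to 55.6) and 53 of 93 XPD peaks (57.0%, 46.3 to 67.2). The flanks were unlike each other, however. The flank before the region gave 63.5% of XPB (50.4 to 75.3) and 77.4% of XPD peaks (63.8 to 87.7). The flank after it gave 24% (13.1 to 38.2) and 30% (16.6 to 46.5), with intervals that included the shares of the whole lists. The shares of the region lay between those of its flanks. Peaks of the region stood in 134 separate sites when overlapping intervals were joined. Of these, 44 held peaks of both lists, 55 peaks of the XPB list alone and 35 peaks of the XPD list alone. Sites were not joined over the flanks or the whole lists, so these counts have no background and are not read as a trait of the region.

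By class, 25 of 57 XPB peaks were shared in class I (43.9%, 30.7 to 57.6), 18 of 32 in class III (56.3%, 37.7 to 73.6) and 7 of 16 in class II (43.8%, 19.8 to 70.1). Among XPD peaks it was 23 of 41 in class I (56.1%, 39.7 to 71.5), 17 of 28 in class III (60.7%, 40.6 to 78.5) and 6 of 12 in class II (50%, 21.1 to 78.9). Class III had the highest share in both lists, but the intervals of the 3 classes overlapped widely. The order did not hold under each rule. With a score of at least 200 required in both lists, class III had the lowest share of XPB peaks (31.58%, against 48.3% in class I and 50% in class II), and with summits within 250 bp its XPD share (39.3%) was below that of class I (41.5%).

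Shares were also compared between crowded and other tiles. In the 2 most crowded tiles of 500 kb, from 30500001 and from 31500001, 34 of 54 XPB peaks were shared (62.96%, 48.7 to 75.7), and elsewhere in the region 16 of 51 (31.37%, 19.1 to 45.9). For XPD it was 31 of 50 (62.0%, 47.2 to 75.3) and 15 of 31 (48.4%, 30.2 to 66.9). The intervals did not overlap for XPB and did for XPD, and the tiles were chosen for their peak numbers after these were seen. Class III, which holds one of these tiles, was also the most covered, with XPD peaks over 4.97% of its length and 0.487% of the whole span. The part of coverage in the overlap was not tested.

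Shares were then read within bands of score. Of XPB peaks scoring 150 to 200, 16 of 51 were shared (31.37%, 19.1 to 45.9), beside 13.3% over the whole list. Of those from 200 to 300, 11 of 27 were shared (40.7%, 22.4 to 61.2), beside 29.7%, and of those at 300 or more, 23 of 27 (85.2%, 66.3 to 95.8), beside 73.2%. The XPD shares in the same bands were 16 of 40 (40%, 24.9 to 56.7), 12 of 21 (57.1%, 34.0 to 78.2) and 18 of 20 (90.0%, 68.3 to 98.8), beside 24.9%, 48.6% and 87.1%. The share in the region was the higher in each band of each list, but only for XPB peaks of the lowest band did the interval lie clear of the whole list. The flanks gave 16.7%, 40% and 80.5% for XPB and 40.4%, 56% and 95.2% for XPD in the 3 bands, with intervals that overlapped those of the region in each. The part of local peak density in these shares was not tested. In the lowest band 6 of 28 XPB peaks were shared in class I, 6 of 13 in class III and 4 of 10 in class II.

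**Figure D4:**
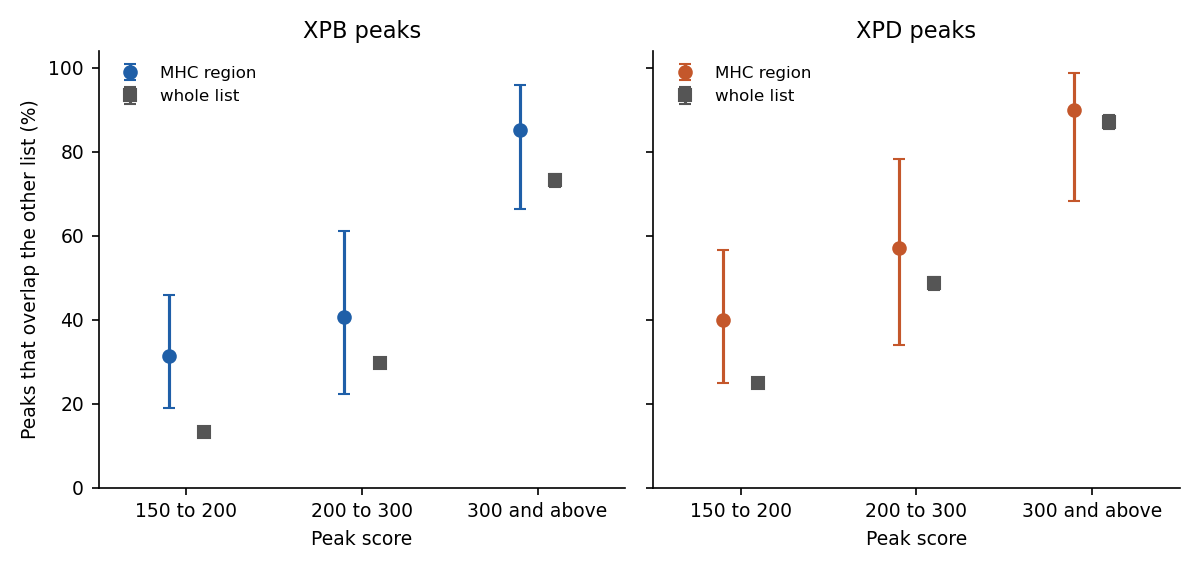
Percentage of peaks that overlap the other list (vertical axis) by band of peak score, for the MHC region and for the whole list, with exact 95% intervals; XPB on the left, XPD on the right. Shares rise with score in both, from 31.37 to 85.2% for XPB and from 40 to 90.0% for XPD in the region.

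Paired peaks, each the largest overlap of the other, numbered 45 in the region: 22 in class I, 17 in class III and 6 in class II. The distance between their summits had a median of 72 bp and quartiles of 26 and 347 bp, and 27 of 45 (60%, 44.3 to 74.3) were within 100 bp, beside 50.7% of the 5536 pairs of the whole lists. Within 250 bp were 30 (66.7%, 51.0 to 80.0), beside 68.5%. The median distance was 45.5 bp in class I, 99 bp in class III and 189 bp in class II. Tall pairs coincided most closely: the 7 pairs with at least 20 fragments in both lists had a median distance of 22 bp, and the 29 with fewer than 20 in both had 149 bp. Summits more than 500 bp apart were found in 4 pairs of class I, 6 of class III and 1 of class II, or 24.4% of the 45 beside 15.2% over the whole lists. The farthest apart, at 1627 bp, was the pair of the 3044 bp XPD peak of class III with the XPB peak from 31703845 to 31704553. Pairs were set by the largest overlap, and the same XPD summit lay 29 bp from that of another overlapped XPB peak, from 31705612 to 31706719. Likewise, the XPD summit of a class II pair 779 bp apart lay 175 bp from another overlapped XPB summit. In these pairs the distance depended on the pairing rule, which also set the pairs of the whole lists. In the other pairs more than 500 bp apart, no nearer summit of the other list was present. Library fragments were 400 to 700 bp long, longer than most of these distances.

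Heights at paired sites rose together. Across the 45 pairs rho was 0.71 and Pearson's r on log2 heights 0.79, beside 0.59 and 0.76 over the whole lists. Within the 29 low pairs rho was 0.42. These are descriptions across peaks of the same libraries, which are not replicates. The log2 height ratio, XPD over XPB, had a median of 0.14 in the region and 0.11 over the whole lists, without adjustment for depth. Over the 5536 pairs of the whole lists XPD was taller in 2975, XPB in 2003, and 558 were equal. In class I the unscaled heights were near even, with XPD taller in 10 pairs, XPB in 11 and 1 equal, and a median of -0.04. In class III XPD was taller in 12 pairs, XPB in 2 and 3 were equal, with a median of 0.29, and in class II XPD was taller in 5 and 1 was equal, with a median of 0.46.

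Single pairs rarely departed from the ratio of the whole lists beyond counting error. Of the 45, the 95% counting interval of the log2 ratio lay wholly below the median of the whole lists in 2 pairs and wholly above it in 0. Both were tall class I pairs of the dense block already described. At 30649786 to 30651555 the log2 ratio relative to that median was -1.02 (-1.94 to -0.16), and at 30736457 to 30737765 it was -1.16 (-2.19 to -0.19). These intervals were not adjusted for the number of pairs examined. No such count is given here for the pairs of the whole lists, so 2 of 45 has no background and is not read as a trait of the region. With 1 library per antibody, variation between libraries and a difference between the proteins cannot be told apart.

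**Figure D5:**
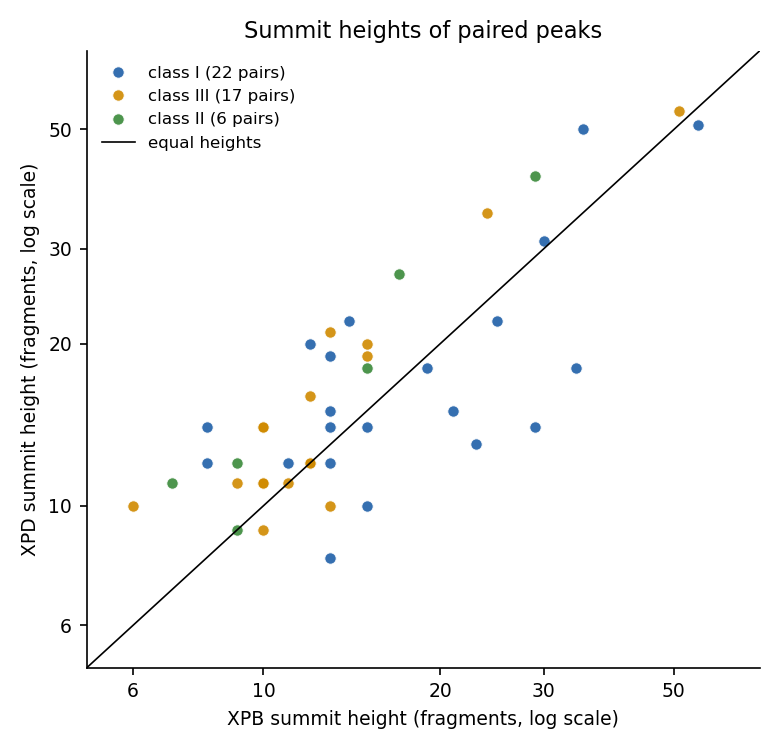
XPB (horizontal) against XPD (vertical) summit height in fragments for the 45 paired peaks of the region, both axes on a log scale, coloured by class; the line marks equal heights, and pairs with the same heights lie on top of each other. Most class III and class II pairs lie on or above the line, and the 2 class I pairs farthest below it have 34 and 29 XPB fragments against 18 and 14 XPD fragments.

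Several sites were cut into a different number of peaks in the lists. In the region 5 of the 81 XPD peaks overlapped 2 or more XPB peaks, and 2 of the 105 XPB peaks overlapped 2 XPD peaks. No share over the whole lists is given beside these counts, so they are not read as a trait of the region. One of the 2 XPB peaks ran from 28863177 to 28864355 (25 fragments, score 391), where XPD had 2 peaks of 22 fragments each. XPD was the wider peak in 32 of the 45 pairs, with a median width of 1211 bp, against 1006 bp for XPB. This was 71.1% of the pairs, beside 58.3% over the whole lists, where the medians were 1028 and 959 bp.

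Peaks in a single list were lower in score but present in all classes. The 55 XPB peaks found in their list alone had a median score of 180 and a median summit of 11 fragments, and the 50 shared ones had 292 and 13. The 35 XPD peaks found in their list alone had a median score of 186 and a median summit of 12 fragments, and the 46 shared ones had 239 and 14. A score of 300 or more was reached by 4 single-list XPB peaks (7.27%, beside 5.22% of single-list peaks in the whole list) and 2 single-list XPD peaks (5.71%, beside 2.497%). Scores of 150 to 200 were held by 35 of the 55 single-list XPB peaks and 24 of the 35 single-list XPD peaks. Over the whole lists it was 10644 of 15828 and 6689 of 8931. A partner under the lowest listed score in the other library would not appear in these files, and whether there were such partners was not tested.

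The highest-scoring XPB peak without a partner was at 30495304 to 30496742 in class I (14 fragments, score 305), at 31670553 to 31672211 in class III (10 fragments, score 321) and at 33168078 to 33169026 in class II (14 fragments, score 313). For XPD it was at 28602416 to 28603383 in class I (13 fragments, score 269), at 32042522 to 32044605 in class III (the wide peak above) and at 33266749 to 33268269 in class II (12 fragments, score 366). The last was the highest single-list score of the region. A summit of the other list lay within 5 kb of 17 of the 55 single-list XPB peaks (30.9%) and 15 of the 35 single-list XPD peaks (42.9%). The shares over the whole lists were not computed, so these values have no background here. The median distance to the nearest summit of the other list was 28.6 kb for single-list XPB peaks in class I, 11.4 kb in class III and 5.05 kb in class II. For single-list XPD peaks it was 11.1, 4.74 and 3.94 kb in the same classes. The class II medians rest on 9 XPB and 6 XPD peaks.

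Single-list sites also came in runs. The longest runs were of XPB: 5 successive sites from 28641535 to 28806779 and 5 from 31092685 to 31140995, both in class I. The first of these held summits of 26, 18, 12, 15 and 20 fragments, tall for single-list peaks, although their scores were 299, 162, 220, 152 and 172. The second held summits of 9 to 13 fragments. The longest run of XPD had 3 sites, from 30098620 to 30166283, with summits of 13, 11 and 11 fragments. These runs were picked after their values were seen, and XPB had 55 single-list sites in the region where XPD had 35. Over the whole list 15828 of the 21555 XPB peaks were single-list. Runs are not given here for the flanks or the whole lists, so their lengths have no background.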

How the data were processed

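The members and the class boundaries were chosen with earlier results of these data known. Per the submitters' processing notes, the authors used Bowtie 0.12.7, MACS 1.4 and the hg19 build; other settings, and whether the input was the control for the scores, are not given in the sources used here. Each ChIP library has a deposited list of intervals with a score and a deposited list of summits with a signal, taken from the usual MACS layout as 10 times the negative log10 of the p-value and the unscaled pileup height at the summit. PCR ran for 12 cycles for the ChIP libraries and 9 for the input, per the labels' protocols. PCR copies are not independent molecules. Read depth is unknown.

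Groups came from the antibody fields. Peaks with their summits were counted per class, and shared meant an overlap of at least 1 bp. Densities over the autosomes used the span from the first to the last peak of each chromosome. Median intervals are order statistics, and height ratio intervals are exact binomial. The overlap and pairing functions were tested on simulated data. Peaks named by rule were, per class and list, the 3 highest scores, the 3 tallest summits, the highest-scoring single-list peak, peaks wider than 2 kb, the densest 100 kb window, and the 2 longest empty stretches; others were chosen after their values were seen. Genes were not assigned, for want of hg19 annotation, so the planned gene lists were not used. Alternatives moved class boundaries by 100 kb and varied the score threshold, the overlap rule and the list length. The software was Python 3.11.15 with scipy 1.17.1, pandas 2.3.3, numpy 2.4.6 and matplotlib 3.10.9.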

Additional observations from a re-analysis of the deposited data

How the results depend on the processing

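Of 120 alternatives, 101 fell inside the counting interval of the main value and 19 outside, and the density of class III over class I stayed above 1 in all, at 2.03 to 3.63 for XPB and 2.65 to 5.68 for XPD. The order of class I and class II was less stable: with a score of at least 300, a planned setting, class II over class I was 1.15 for XPD, from 12 peaks. Shares of the region fell under stricter overlap: 32.4% of XPB and 42.0% of XPD peaks with a reciprocal overlap of 50% (whole lists 21.7 and 32.17%), and 30.48 and 39.5% with summits within 250 bp (17.9 and 26.4%). With a score of at least 200 in both lists they were 42.6 and 56.1% (whole lists 30.5 and 49.1%). The values were above the whole lists in each case, but no intervals were computed under these rules, so whether they lay beyond counting error was not tested. In class III both rules gave 34.4% for XPB and 39.3% for XPD, in class I summits within 250 bp gave 29.8% for XPB, and a score of at least 200 gave 31.58% for XPB in class III. That score, which raises medians by construction, gave median scores of 299 and 257 in class I for XPB and XPD, 357 in class III for XPD and 335 in class II for XPB, and a median height of 14.5 fragments in class II for XPB. Choices made after seeing the data were leaving out the densest 300 kb of class I, which gave 5.68 for class III over class I and 1.31 for class II over class I, both for XPD, and a share of 29.4% for XPB in class I; and counting class II after its empty part, which raises its density by construction and gave 1.22 times class I for XPB. No paired analysis was possible because each antibody had 1 library. With depth unknown and scores listed from 150 upwards, a site missing from a list may still have been bound.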
